A study of Mus musculus with 44 samples.

Results

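The Toll-like receptor genes of the mouse, the sensors through which macrophages detect microbial molecules, were followed across bone marrow-derived macrophages (BMDMs) given immune signals, a gene deletion or an inhibitor. The 10 genes are Tlr1, Tlr2, Tlr3, Tlr4, Tlr5, Tlr6, Tlr7, Tlr8, Tlr9 and Tlr13, chosen by name from the 24940 genes listed in each of 4 tables of read counts, and all 10 are listed in every table. The tables hold 44 RNA-seq libraries in 22 groups of 2.

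By the study's methods, all cells were BMDMs of C57BL/6 mice 8 to 12 weeks old. They were grown in the presence of M-CSF and held in reduced serum before treatment. The column headers of the RANKL libraries name osteoclasts instead. The study's supplement also describes an osteoclast culture of bone marrow cells, given for ChIP-seq. It used another medium, with M-CSF and then RANKL, and names no step of reduced serum. Which of the cultures the RANKL libraries came from is not stated. In the largest table, the controls (WT) carried NCoR flox/flox without Cre, and the knockout (NKO) carried NCoR flox/flox with LysMCre, which is driven by the Lyz2 locus and so acts in the myeloid lineage as a whole. Both genotypes received vehicle, Kdo2 lipid A (KLA, an agonist of TLR4), poly I:C (an analog of double-stranded RNA), IFNb (interferon β, a type I interferon) or IL4 for 6 h, or RANKL for 12 h. The second table holds wild type cells with vehicle, KLA, or KLA with RGFP966, an inhibitor of the histone deacetylase HDAC3. The third holds Pgc1b flox/flox cells without Cre or with LysMCre, under vehicle or KLA, where Pgc1b is the transcriptional coactivator PGC1β. The fourth holds wild type cells with DMSO, DMSO and KLA, or an inhibitor of the kinase TBK1 with KLA. KLA was given for 6 h throughout. By the study's methods, both inhibitors were added when serum was reduced, 12 h before KLA. The labels do not say whether the 2 libraries of a group came from separate animals, so p-values measure the spread between these libraries, which may be technical.

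Toll-like receptors are membrane proteins whose outer part binds a microbial ligand and whose inner part recruits the adaptors MyD88 or TRIF. TLR1, TLR2, TLR4, TLR5 and TLR6 act at the cell surface, where TLR2 pairs with TLR1 or TLR6 to bind lipoproteins, TLR4 binds lipopolysaccharide with MD-2 and CD14, and TLR5 binds flagellin. TLR3, TLR7, TLR8, TLR9 and TLR13 act in endosomes, where they bind nucleic acids and need the chaperone UNC93B1 to get there. TLR3 binds double-stranded RNA and signals through TRIF, TLR7 and TLR8 bind single-stranded RNA or its breakdown products, TLR9 binds DNA with unmethylated CpG, and TLR13 binds a stretch of bacterial ribosomal RNA and has no human counterpart. TRIF signalling passes through TBK1 to the interferon response.

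Gene counts ran from 8.32 M to 16.8 M per library (M, 1e6), with a median of 12.2 M, and a floor of 3 counts corresponds to 0.179 to 0.360 CPM (counts-per-million, the count scaled to a common library total). The deleted or targeted genes checked the labels only in part. Ncor1 stood at 49.4 to 64.9 CPM in the NKO libraries and at 133 to 215 CPM in the WT libraries, whereas Ppargc1b, counted over all its exons, was not lower with LysMCre under KLA (10.3 and 8.73 CPM against 7.80 and 6.78 CPM), which checks nothing if only some exons are deleted. Xist was at 721 to 1109 CPM in 34 libraries, while the other 10 libraries, all 8 of the Pgc1b table and the 2 of NKO with KLA, had Xist near 0 and 55.0 to 207 CPM of 4 Y-linked transcripts. Tlr7, Tlr8 and Tlr13 lie on the X chromosome. Date stamps in the library names were shared by vehicle, poly I:C, IFNb and IL4 of both genotypes. The RANKL libraries were stamped 536 days before them, those of WT with KLA 115 days before and those of NKO with KLA 1516 days before, so for NKO against WT under KLA the genotype, the stamp and the sex of the animals cannot be told apart. For WT with KLA against WT with vehicle, KLA and the stamp cannot be told apart either. In each of the other tables, the control libraries with vehicle and with KLA share a stamp. The 2 RGFP966 libraries carry stamps 14 days apart. The 7 macrophage markers summed to 9162 to 23570 CPM in every library, all 7 above 1 CPM. A large part of this sum was Lyz2, the locus of LysMCre. In WT with RANKL, Lyz2 held 19366 and 19087 CPM of a sum of 23250 to 23570 CPM. With vehicle it held 9285 and 9126 CPM of a sum of 16780 to 17170 CPM. The highest sums, with RANKL, thus do not show that the other 6 markers were higher there. The 5 B cell markers summed to at most 8.63 CPM, the 4 T cell markers to at most 21.1 CPM and the 5 markers of conventional dendritic cells to at most 35.4 CPM, the last in NKO with KLA. The 4 markers of plasmacytoid dendritic cells, 1 of which is the widely expressed Tcf4, reached 447 CPM, also in NKO with KLA. Fibroblast markers (4 genes) summed to 0.164 to 0.167 CPM in WT with KLA and to 87.8 to 96.4 CPM in WT with vehicle. Within bulk cultures, fewer cells of a type and less RNA per cell cannot be told apart, and the part of these differences in the results was not tested.

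In mm10, the 10 genes lie on 7 chromosomes. Tlr1 (chr5:64924680-64933558) and Tlr6 (chr5:64952030-64960096) are neighbours on the minus strand, and Tlr8 (chrX:167241123-167264329) and Tlr7 (chrX:167304926-167330571) are neighbours on the minus strand of the X chromosome. Tlr13 is at chrX:106143275-106160493, Tlr2 at chr3:83836272-83841608, Tlr3 at chr8:45395665-45410619, Tlr4 at chr4:66827551-66846581, Tlr5 at chr1:182954788-182976044 and Tlr9 at chr9:106222598-106226876. The counts cover exons of 1 RefSeq transcript a gene. Tlr1 and Tlr6 share 454 stretches of 50 bases in the GENCODE transcripts, 13.6% of those of Tlr1 and 12.3% of those of Tlr6, so reads of this pair could be split or lost in counting. No other pair of the 10 shares a stretch of 50 bases. Exons of Tlr3 share 381 bases with the antisense gene Gm45542, and since the strand setting of the counting is uncertain, reads of these 2 genes cannot be told apart there.

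The bases upstream of a RefSeq start are shown for 3 genes on which the results below turn, Tlr3 and Tlr9, whose transcripts fell most with TBK1 inhibition, and Tlr2, whose transcript was not called. Each run is 250 bases, 5′ to 3′ on the gene's strand, from RefSeq (GRCm38.p6), with capitals marking matches on either strand to an NF-κB consensus in Tlr2 and Tlr3 and to the AP-1 letters TGANTCA in Tlr9.
Tlr2: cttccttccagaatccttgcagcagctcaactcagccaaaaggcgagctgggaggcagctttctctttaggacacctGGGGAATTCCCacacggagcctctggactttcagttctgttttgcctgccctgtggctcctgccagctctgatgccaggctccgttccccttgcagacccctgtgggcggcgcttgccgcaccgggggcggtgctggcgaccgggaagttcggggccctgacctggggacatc
Tlr3: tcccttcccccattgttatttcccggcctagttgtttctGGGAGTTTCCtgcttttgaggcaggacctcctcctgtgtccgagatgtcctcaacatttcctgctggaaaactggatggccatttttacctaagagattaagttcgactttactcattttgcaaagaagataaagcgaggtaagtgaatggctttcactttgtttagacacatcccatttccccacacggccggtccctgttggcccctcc
Tlr9: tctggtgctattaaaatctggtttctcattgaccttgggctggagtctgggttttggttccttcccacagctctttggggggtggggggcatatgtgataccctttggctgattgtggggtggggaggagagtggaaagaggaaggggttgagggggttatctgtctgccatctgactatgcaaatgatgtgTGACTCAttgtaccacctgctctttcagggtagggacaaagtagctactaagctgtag
The positions are chr3:83841609-83841858 (minus strand) for Tlr2, chr8:45410381-45410630 (minus strand) for Tlr3 and chr9:106222348-106222597 (plus strand) for Tlr9. The windows of Tlr2 and Tlr9 end where the counted transcript starts. That of Tlr3 belongs to another start, at base 45410380 of chromosome 8, so 239 of its 250 bases lie inside the counted transcript. Of 32851 promoter windows of this length, 7.25% hold an NF-κB match, 6.75% an AP-1 match, 7.13% the interferon-stimulated response element core GAAANNGAA and 7.02% the gamma-activated site TTCNNNGAA. In Tlr2, 2 overlapping NF-κB matches run from base 173 to base 163 before the start, in Tlr3 1 match before that other start runs from base 211 to base 202, and in Tlr9 the AP-1 letters run from base 58 to base 52. None of these 3 windows holds GAAANNGAA or TTCNNNGAA. GAAANNGAA is found in the windows of Tlr8 (bases 67 to 59) and of 1 of the 2 starts of Tlr6 (bases 115 to 107, and 109 to 101, which overlap), and TTCNNNGAA in those of Tlr8 (bases 106 to 98) and of 1 of the 2 starts of Tlr1 (bases 228 to 220). Both of these windows of Tlr6 and Tlr1 lie wholly inside the counted transcript. These are matches of letters, not sites, and 8 of the 10 genes are in the promoter table, which lacks Tlr4 and Tlr7.

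**Figure D1:**
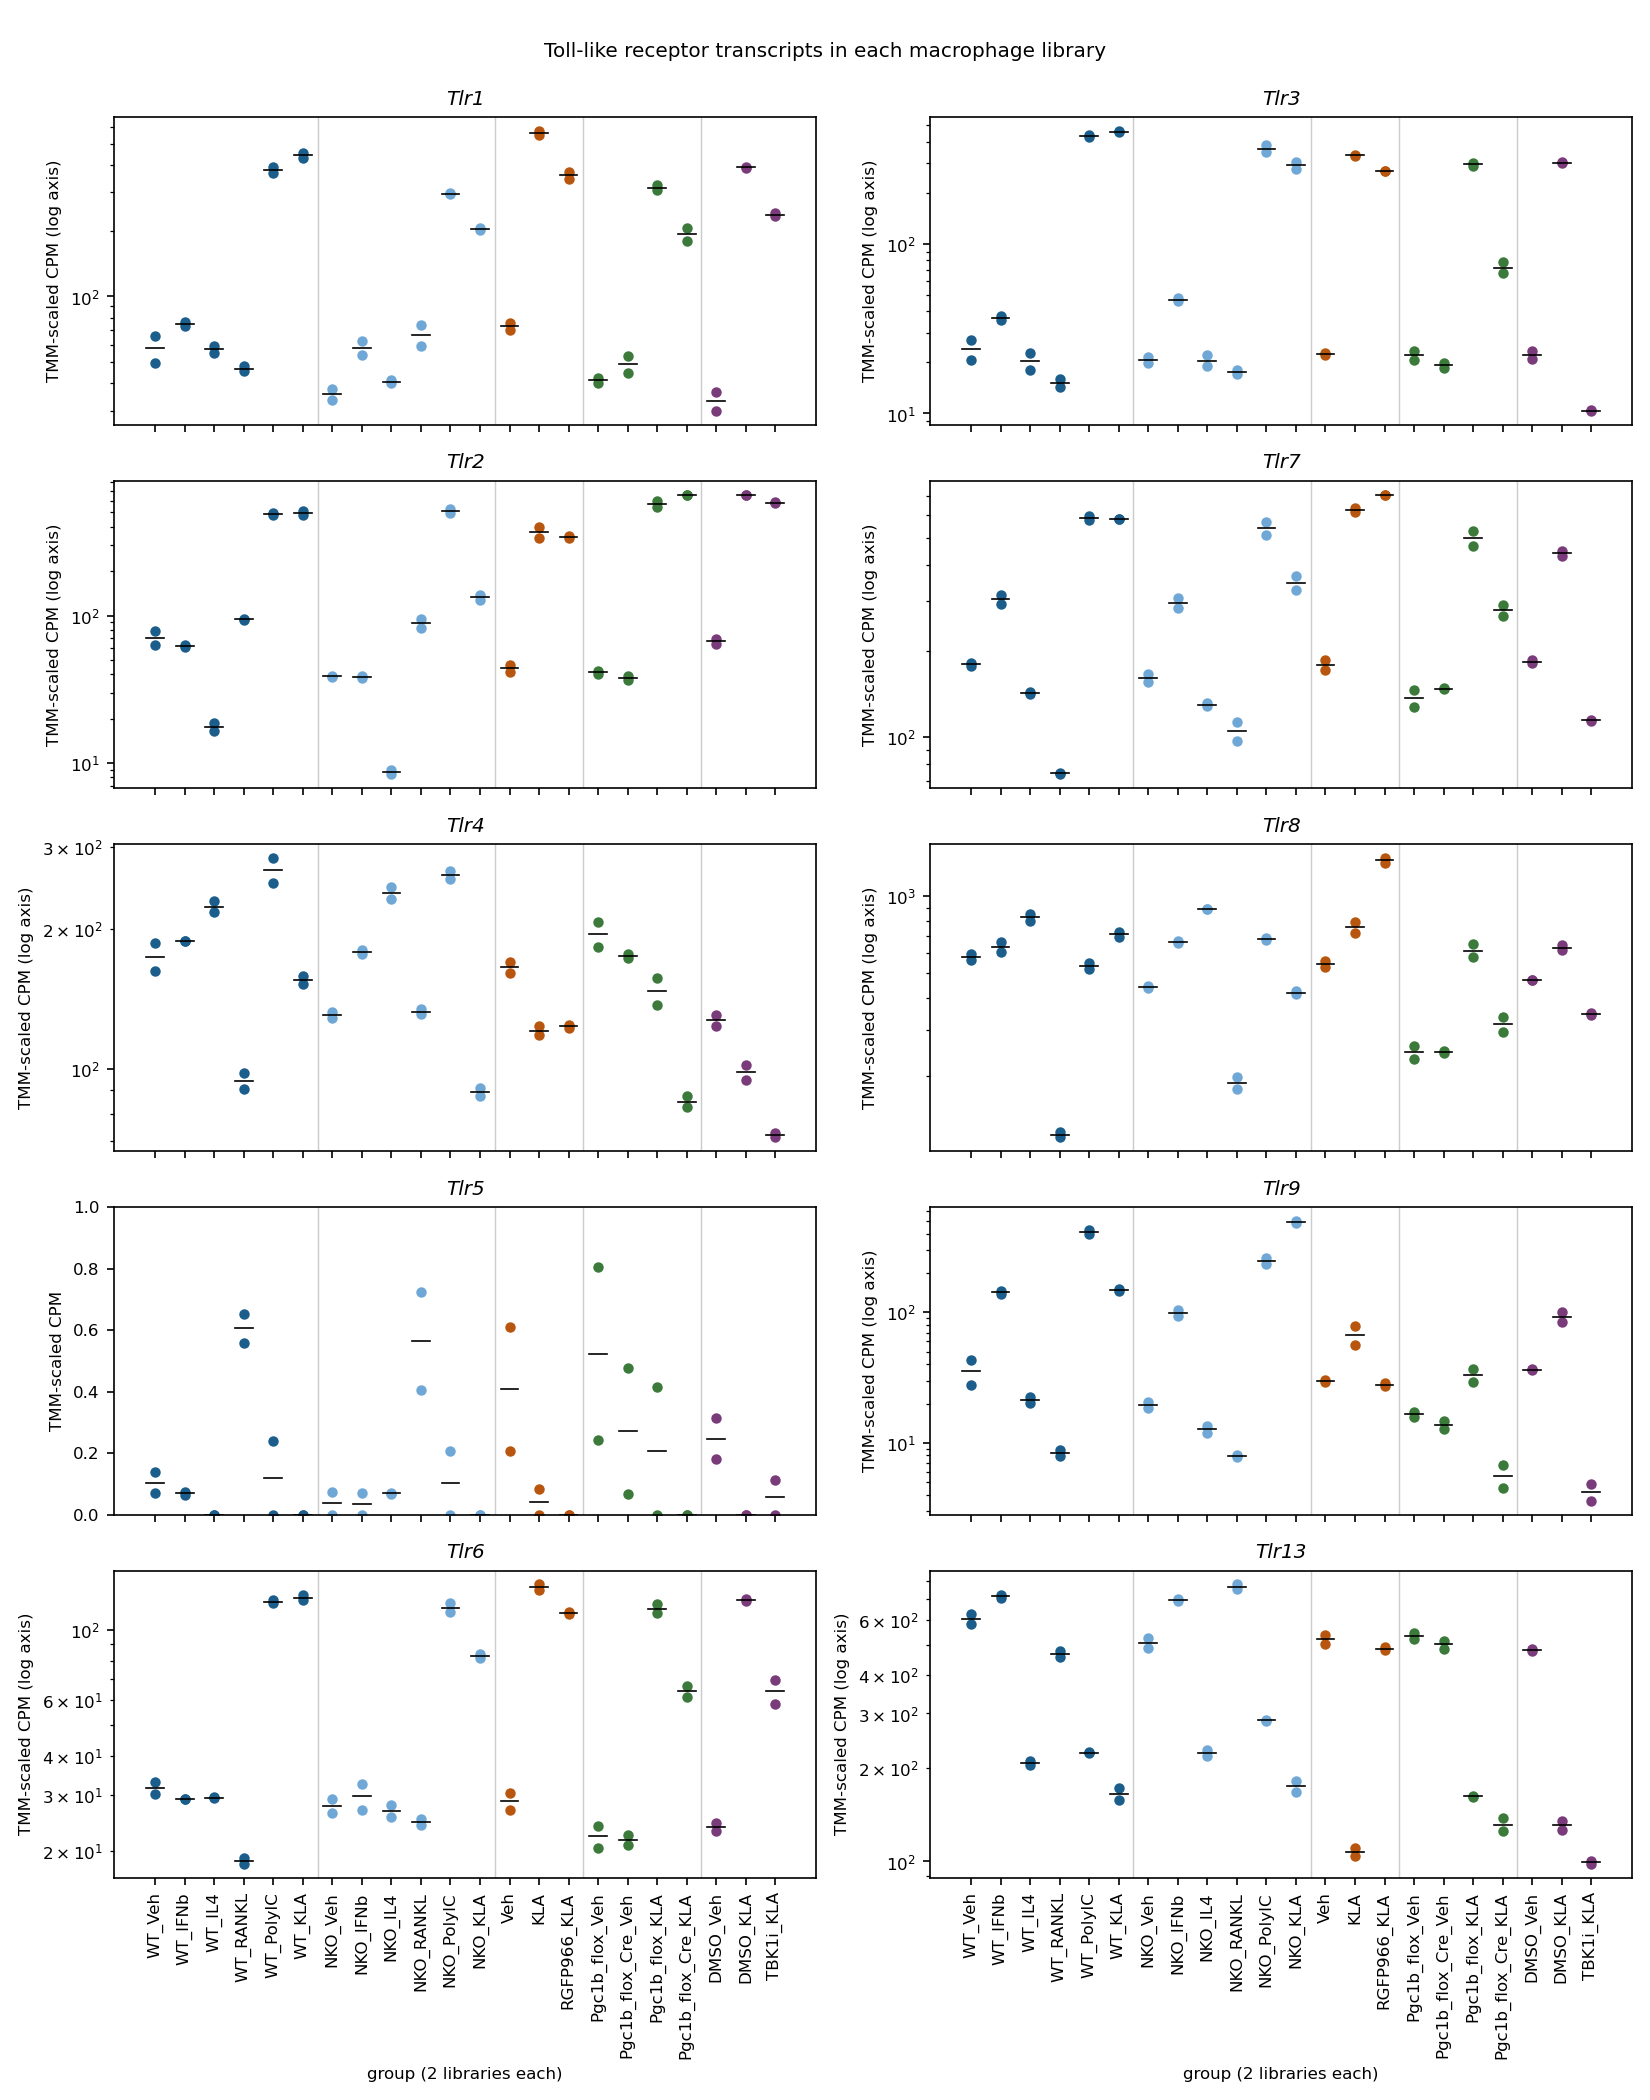
TMM-scaled CPM of each Toll-like receptor gene (y axis, log scale except for Tlr5, which runs from 0) in the 22 groups (x axis), with 1 point per library and a line at the mean of the 2 libraries. Dark blue is WT, light blue NKO, orange the RGFP966 table, green the Pgc1b table and purple the TBK1 inhibitor table; Tlr3 is at 10.4 to 10.4 CPM with the TBK1 inhibitor and KLA and at 298 and 302 CPM with KLA alone.

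Resting WT macrophages carried mostly transcripts of endosomal receptors. Per kilobase of transcript, the mean of the 2 vehicle libraries was 151 CPM per kb for Tlr13 (SD 7.44), 115 for Tlr8 (SD 4.32) and 45.7 for Tlr7 (SD 0.839), which together with the others summed to 402 CPM per kb. Tlr2 (24.9, SD 4.01), Tlr4 (22.1, SD 2.15) and Tlr1 (19.2, SD 3.83) followed, each within the spread of its neighbour in this order, then Tlr9 (10.2, SD 3.04), Tlr6 (8.49, SD 0.541) and Tlr3 (5.44, SD 1.06), all in CPM per kb. Tlr13 alone made up 37.6% of the summed level. This composition moved with the signal. Tlr2 held rank 1 in WT with KLA, at 174 CPM per kb (SD 7.76) of a sum of 853, ahead of Tlr7 at 148 (SD 0.184) and Tlr1 at 147 (SD 4.69). With KLA it also held rank 1 in Pgc1b flox cells (199 CPM per kb) and DMSO cells (230). In the wild type cells of the RGFP966 table with KLA, Tlr2 held rank 4 (129 CPM per kb) and Tlr1 rank 1 (185.5). Tlr8 held rank 1 in WT with IL4, at 164 CPM per kb (SD 7.09) or 50.6% of the sum. With RANKL the sum fell to 230 CPM per kb, of which Tlr13 held 50.5%.

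Over the 22 groups, the group mean of Tlr9 ranged 117-fold, from 4.21 CPM (SD 0.851) with the TBK1 inhibitor and KLA to 492 CPM (SD 10.5) in NKO with KLA, that of Tlr2 75.4-fold and that of Tlr3 44.2-fold. Tlr4 varied least, by 3.72-fold, from 72.1 CPM (SD 1.21) with the TBK1 inhibitor and KLA to 268 CPM (SD 23.5) in WT with poly I:C. Between these lay Tlr1 (16.8-fold), Tlr8 (11.7-fold), Tlr7 (9.54-fold), Tlr13 (7.74-fold) and Tlr6 (7.35-fold), and since the tables were scaled separately these folds are descriptions. Within the NCoR table, the 4 groups with KLA or poly I:C stood above the other 8 by mean for Tlr1, Tlr2, Tlr3, Tlr6, Tlr7 and Tlr9, and for Tlr13 these 4 and the 2 IL4 groups were the 6 lowest. The order by mean of Tlr8 began with the 2 IL4 groups, NKO at 894 and 891 CPM and WT at 803 and 853 CPM, and ended with the 2 RANKL groups. Neighbours in the order whose libraries overlapped included, for Tlr2, NKO with poly I:C, WT with KLA and WT with poly I:C (means 512, 497 and 489 CPM), for Tlr7, WT with poly I:C and WT with KLA (588 and 583 CPM) and for Tlr9, WT with KLA and WT with IFNb (149 and 142 CPM).

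Tlr5 was at the limit of detection. Its counts ran from 0 to 13 per library over all 44 libraries, it passed the low-count filter only in the NCoR table, and no fold change of it is given except with RANKL. There, the 2 WT libraries together held 18 counts against 3 in the 2 vehicle libraries, a ratio of 6.28 at equal depth (95% exact interval 1.83 to 33.3, counting error only). The edgeR call for this difference (adjusted p = 0.0143) was not kept by DESeq2 (adjusted p = 0.0942) or without a low-count filter (adjusted p = 0.0544), nor without vehicle library 1 or RANKL library 1. The RANKL libraries also held the neutrophil markers at 1042 to 1537 CPM summed over 6 genes, against 1.34 to 22.4 CPM in every other group, and their part in this result was not tested.

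Activation of TLR4 by KLA raised the transcripts of 6 of the 10 genes in WT cells and lowered 1. Across the 13407 genes tested, 25.4% were called higher and 32.3% lower, where a call requires an adjusted p below 0.05 and a fold above 1.5. Tlr3 moved most. It was at 20.6 and 27.2 CPM in the vehicle libraries and at 459 and 459 CPM with KLA, a log2 fold change of 4.26 ± 0.081 (SE, adjusted p = 7.36e-38). The genes of the lipoprotein receptor all rose. Tlr1 went from 49.8 and 66.1 to 433 and 453 CPM (log2 fold change 2.93 ± 0.10 (SE, adjusted p = 2.49e-15)). Tlr2 went from 62.9 and 79.0 to 513 and 481 CPM (2.81 ± 0.068, adjusted p = 3.51e-38) and its partner Tlr6 from 30.2 and 33.0 to 129 and 124 CPM (2.00 ± 0.077, adjusted p = 2.59e-32). In each of these genes both KLA libraries lay above both vehicle libraries. Among the endosomal receptors, Tlr7 rose from 182 and 177 to 583 and 582 CPM (1.70 ± 0.061, adjusted p = 3.49e-33) and the CpG sensor Tlr9 from 27.9 and 42.7 to 152 and 146 CPM (2.08 ± 0.13, adjusted p = 7.02e-10). Tlr13 went the other way, from 585 and 627 CPM to 173 and 158 CPM, a log2 change of -1.87 ± 0.058 (SE, adjusted p = 4.2e-37). Tlr4, the receptor of KLA itself, was at 159 and 153 CPM against 163 and 187 CPM and was not called (-0.16 ± 0.064, adjusted p = 0.0182), and neither was Tlr8 (0.30 ± 0.054, adjusted p = 1.82e-06).

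The same comparison was made 3 more times in control cells of the other tables, and the same 6 genes were called higher and Tlr13 lower in each. With KLA, 27.9% of 12196 genes were called higher and 32.2% lower in the wild type cells of the RGFP966 table, 22.8% and 25.7% of 12205 genes in Pgc1b flox cells, and 29.6% and 29.3% of 12332 genes in the DMSO cells of the TBK1 inhibitor table. The log2 fold change of Tlr3 was 3.89, 3.74 and 3.76 in these tables, and that of Tlr13 was -2.27, -1.72 and -1.88. The levels of Tlr9 under KLA were 79.1 and 55.9 CPM, 36.5 and 29.3 CPM and 100.2 and 84.3 CPM in these 3 tables beside 152 and 146 CPM in WT. Tlr8 was called higher only in the Pgc1b flox cells (1.32 ± 0.072, adjusted p = 3.95e-18), whose 2 vehicle libraries, from male cells, held 259.9 and 233 CPM against 532 and 559 CPM and 469.9 and 471 CPM in the vehicle groups of the other 2 tables. The tables were scaled separately, and differences between them, with the part of sex in them, were not tested. Tlr4 was below its vehicle level in every table without being called, at log2 changes of -0.45, -0.41 and -0.37.

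Poly I:C, a ligand of TLR3, called 7 of the 10 genes higher and Tlr13 lower, beside 22.2% and 25% of all genes tested. Tlr3 itself reached 425 and 438 CPM (4.17 ± 0.081, adjusted p = 1.49e-37). Tlr9 reached 398 and 428 CPM, a log2 fold change of 3.55 ± 0.12 (SE, adjusted p = 2.16e-13), and these 2 libraries lay above those of WT with KLA. The KLA libraries carry another date stamp, and the difference between the 2 ligands was not tested. Tlr4 rose with poly I:C, from 163 and 187 to 251 and 285 CPM (0.62 ± 0.059, adjusted p = 3.63e-14), close to the 1.5-fold threshold, and the call is lost without vehicle library 1 (0.52) or poly I:C library 2 (0.53). Tlr1 (2.72), Tlr2 (2.79), Tlr6 (1.96) and Tlr7 (1.71) rose on the log2 scale, and Tlr13 was at 223 and 226 CPM (-1.43 ± 0.055, adjusted p = 3.36e-32).

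IFNb alone raised 3 genes, all of them endosomal receptors, and lowered none, beside 4.09% called higher and 2.37% called lower of all genes tested. Tlr9 rose from 27.9 and 42.7 to 138 and 147 CPM (2.01 ± 0.12, adjusted p = 4.79e-09), Tlr7 to 293 and 315 CPM (0.76 ± 0.060, adjusted p = 5.06e-16) and Tlr3 from 20.6 and 27.2 to 35.7 and 37.5 CPM (0.61 ± 0.095, adjusted p = 1.95e-06). For Tlr3 the call is lost without vehicle library 1 (0.43) or IFNb library 2 (0.58). Poly I:C and IFNb carry the same date stamp and were compared directly. With poly I:C, 6 genes were higher than with IFNb and Tlr13 lower, beside 20.5% and 21.5% of all genes. The difference was 3.56 ± 0.076 (SE, adjusted p = 9.95e-36) for Tlr3 and 2.97 for Tlr2 on the log2 scale, but 1.54 for Tlr9 and 0.95 for Tlr7. Tlr2 with IFNb alone was at 63.6 and 61.2 CPM, and these libraries overlapped those of vehicle.

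IL4 lowered 3 genes and raised none, beside 6.46% called lower and 6.63% called higher overall. Tlr2 fell from 62.9 and 79.0 CPM to 18.6 and 16.4 CPM, a log2 change of -2.02 ± 0.091 (SE, adjusted p = 2.57e-25). Tlr13 fell to 205 and 210.5 CPM (-1.54 ± 0.055, adjusted p = 5.83e-33), and in both genes the libraries of the 2 groups lay well apart. The fall of Tlr9 to 20.4 and 22.4 CPM (-0.72 ± 0.16, adjusted p = 0.00213) rests on vehicle library 2, which held 42.7 CPM against 27.8 CPM in library 1, since without it the log2 change is -0.38. Tlr8 was at 803 and 853 CPM against 563 and 593 CPM with vehicle and stayed below the fold threshold (0.52 ± 0.053, adjusted p = 1.62e-12).

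RANKL lowered 6 genes, beside 19.8% called lower and 24.1% called higher of all genes. The largest falls were in Tlr8, from 563 and 593 to 115 and 121 CPM (-2.29 ± 0.058, adjusted p = 8.32e-41), in Tlr9, to 8.76 and 7.88 CPM (-2.08 ± 0.18, adjusted p = 5.64e-08), and in Tlr7, from 182 and 177 to 74.5 and 73.8 CPM (-1.28 ± 0.065, adjusted p = 2.42e-25). Tlr4 (-0.89), Tlr6 (-0.77) and Tlr3 (-0.66) fell by less on the log2 scale, and Tlr3 loses its call without vehicle library 2 (-0.44) or RANKL library 1 (-0.58). Tlr2 was at 93.3 and 94.8 CPM (0.41 ± 0.071, adjusted p = 1.43e-06) and was not called. RANKL differs from vehicle in time of treatment, in date stamp and in the cells named in the headers, which cannot be told apart from RANKL. The RANKL libraries are named for osteoclasts in their column headers. The 5 osteoclast markers summed to 90.4 to 92.5 CPM in WT with RANKL against 53.8 to 65.7 CPM with vehicle. Of these, 4 averaged at least 1 CPM with RANKL and 3 with vehicle. The sum ran from 53.8 to 176 CPM over all libraries, and Calcr, the calcitonin receptor, had 0 counts in 3 of the 4 RANKL libraries. The 6 neutrophil markers summed to 1042 to 1138 CPM in WT with RANKL against 2.87 to 6.88 CPM with vehicle, where Elane, Ly6g and Mpo were at 0, and the 4 fibroblast markers to 193 to 219 CPM against 87.8 to 96.4 CPM. Their part in the falls of these genes was not tested.

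**Figure D2:**
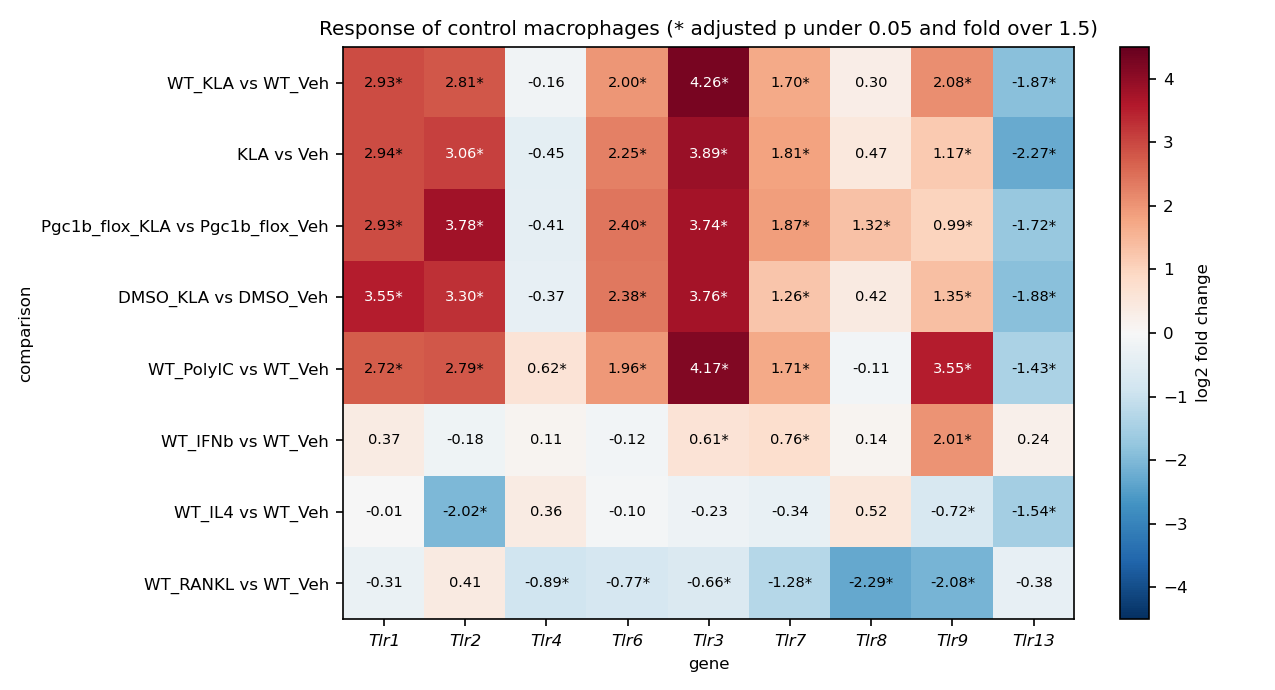
Log2 fold change of 9 Toll-like receptor genes (columns) in control macrophages for each signal against vehicle of its own table (rows), from edgeR, with an asterisk where the call was made; red is higher and blue lower with the signal. Tlr3 is at 4.26 with KLA in WT and Tlr8 at -2.29 with RANKL, and Tlr5 is left out for its low counts.

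The TBK1 inhibitor lowered the KLA-induced receptors by differing amounts. Every tested gene had a lower estimate with it in edgeR, at an adjusted p below 0.05, and the falls were graded. With it, 6 of 9 tested genes were lower under KLA than with DMSO and KLA and none was higher, beside 18.3% called lower and 15% called higher of all genes. Tlr3 fell from 298 and 302 CPM to 10.4 and 10.4 CPM, a log2 change of -4.85 ± 0.082 (SE), and so lay below the 20.9 and 23.5 CPM of the DMSO vehicle libraries. Tlr9 fell from 100.2 and 84.3 CPM to 4.81 and 3.61 CPM (-4.44 ± 0.13, adjusted p = 8.99e-262), also below its vehicle level of 36.5 and 36.0 CPM. Tlr7 fell from 433 and 450.0 CPM to 114 and 114 CPM (-1.95 ± 0.049, SE), where the vehicle libraries held 186 and 181 CPM. The adjusted p of Tlr3 and Tlr7 was below the smallest number the software writes. In contrast, Tlr2 kept most of its level, with 575 and 590.4 CPM against 654 and 659 CPM (-0.17 ± 0.039, adjusted p = 3.52e-05), a difference of small size that passes the p threshold but not that of fold. Its partners were intermediate. Tlr1 fell from 394 and 389 to 241 and 233 CPM (-0.72 ± 0.046, adjusted p = 2.72e-55) and Tlr6 from 125 and 124 to 69.6 and 58.4 CPM (-0.95 ± 0.069, adjusted p = 6.21e-42), both still above both DMSO vehicle libraries. Tlr8 fell to 351 and 343 CPM (-0.86 ± 0.041, adjusted p = 2.1e-97). Tlr13, low under KLA, was not raised by the inhibitor, with 98.3 and 100.4 CPM against 126 and 135 CPM (-0.40 ± 0.056, adjusted p = 9.75e-12), and Tlr4 was at 73.0 and 71.2 CPM against 94.6 and 102 CPM (-0.45 ± 0.066, adjusted p = 6.05e-11). The inhibitor was added before KLA, but no group had it without KLA, so its effect on resting cells was not measured.

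Deletion of Pgc1b with LysMCre called none of the 9 tested genes under vehicle, where only 0.303% of all genes were called in either direction by edgeR (37 genes, with 1217 at an unadjusted p under 0.05). Under KLA, 7 of the 9 were lower with LysMCre and none was higher, beside 12.9% called lower and 13.2% called higher of all genes. Tlr9 was at 4.48 and 6.73 CPM with LysMCre against 36.5 and 29.3 CPM without (-2.56 ± 0.20, adjusted p = 2.67e-13), and below its level in both vehicle groups. Tlr3 was at 67.0 and 77.8 CPM against 287 and 300.5 CPM, a log2 change of -2.02 ± 0.086 (SE, adjusted p = 2.14e-20). Tlr8 (-0.95), Tlr6 (-0.87), Tlr7 (-0.84), Tlr4 (-0.79) and Tlr1 (-0.71) fell on the log2 scale. As with the TBK1 inhibitor, Tlr2 and Tlr13 were not called, Tlr2 with 659 and 657 CPM against 540.3 and 595 CPM (0.21 ± 0.063, adjusted p = 0.0057) and Tlr13 with 125 and 138 CPM against 161 and 163 CPM (-0.30 ± 0.070, adjusted p = 0.000509). The response to KLA itself differed between the genotypes for the same 7 genes, beside 22.8% of all genes with a called interaction. Lyz2, the locus of the LysMCre insertion, was at 4531 and 4391 CPM with LysMCre and 8045 and 8288 CPM without, and Tbk1 at 152 and 156 CPM against 266 and 278 CPM.

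The HDAC3 inhibitor gave another pattern. RGFP966 with KLA raised 2 genes and lowered 2, beside 15.8% called higher and 9.54% called lower of all genes. Tlr13, which KLA lowers, was at 490.4 and 479.7 CPM with the inhibitor against 104 and 111 CPM with KLA alone, a log2 change of 2.18 ± 0.062 (SE, adjusted p = 2.78e-46), and so came close to the 501 and 539 CPM of vehicle, with both inhibitor libraries just below both vehicle libraries. Tlr8 rose to 1407 and 1346 CPM from 719 and 794 CPM (0.86 ± 0.056, adjusted p = 9.36e-24), the highest level of this gene in the 22 groups. Tlr9 fell from 79.1 and 55.9 CPM to 28.7 and 27.1 CPM (-1.27 ± 0.11, adjusted p = 3.71e-12), near its vehicle level of 29.3 and 30.2 CPM, and Tlr1 fell from 548 and 571 to 346 and 372 CPM (-0.64 ± 0.057, adjusted p = 1.49e-16). Tlr3, which fell most with the TBK1 inhibitor, was at 267 and 269 CPM against 335 and 328 CPM and was not called (-0.31 ± 0.057, adjusted p = 3.71e-06). Tlr2 was at 338 and 348 CPM against 337 and 396 CPM, groups that overlapped. RGFP966 was also added before KLA, and no group had it without KLA.

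**Figure D3:**
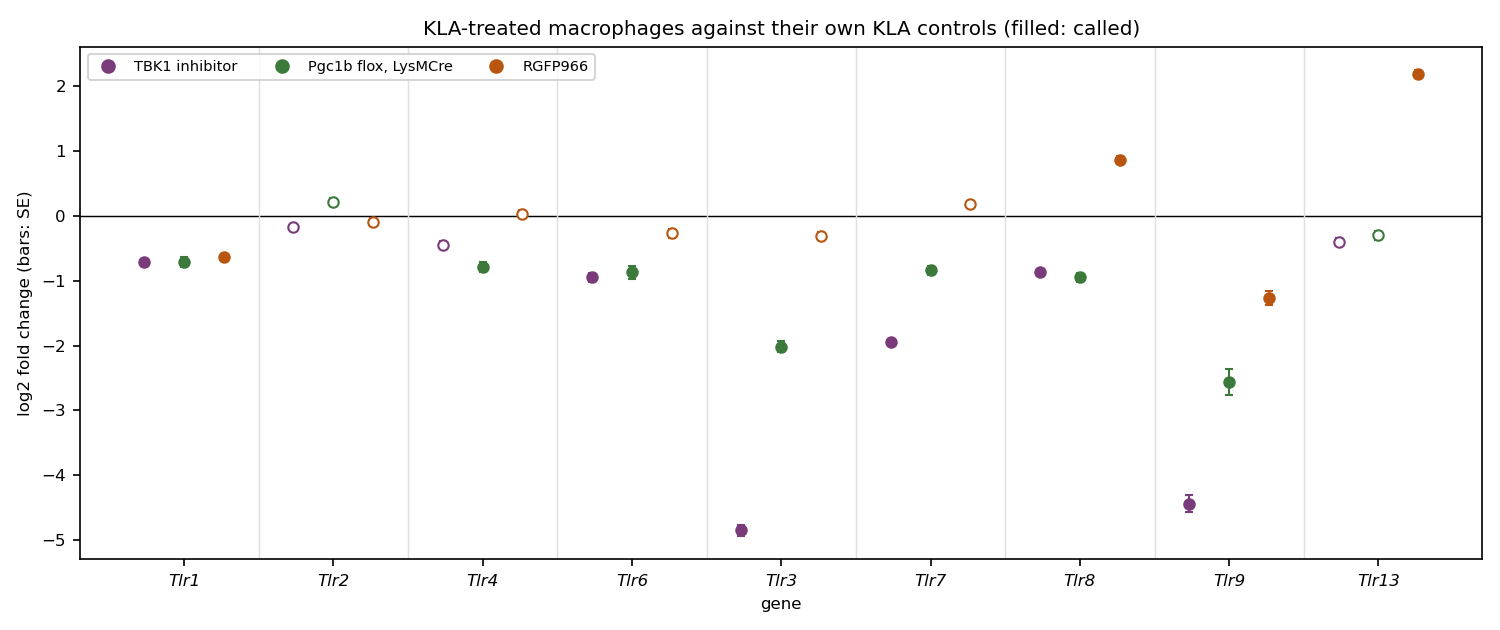
Log2 fold change (y axis, bars SE) of 9 Toll-like receptor genes (x axis) under KLA with the TBK1 inhibitor, with LysMCre in Pgc1b flox cells or with RGFP966, each against the KLA control of its own table, filled where called. Tlr3 and Tlr9 sit at -4.85 and -4.44 with the TBK1 inhibitor, Tlr2 is open in all 3, and Tlr13 sits at 2.18 with RGFP966.

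Tlr2 was lower in NKO than in WT in 4 of 6 conditions. In 1 of these, KLA, the genotype, the date stamp and the sex cannot be told apart. Under vehicle, Tlr2 was at 38.5 and 38.7 CPM in NKO against 62.9 and 79.0 CPM in WT (-0.88 ± 0.077, adjusted p = 3.16e-13). With IFNb it was at 39.0 and 37.9 CPM against 63.6 and 61.2 CPM (-0.70 ± 0.080, adjusted p = 1.35e-09), and with IL4 at 9.02 and 8.42 CPM against 18.6 and 16.4 CPM (-1.0 ± 0.13, adjusted p = 2.36e-08), the lowest of the 22 groups. In these 3 conditions both NKO libraries lay below both WT libraries. With poly I:C the NKO libraries held 531 and 493 CPM against 495 and 483 CPM, and with RANKL 82.8 and 94.5 CPM against 93.3 and 94.8 CPM, neither called. In control cells of the other tables with vehicle, Tlr2 was at 41.7 to 46.2 CPM (wild type, RGFP966 table), 40.3 to 42.3 CPM (Pgc1b flox) and 64.6 to 69.1 CPM (DMSO). The first 2 of these lie nearer to NKO than to WT with vehicle. The tables were scaled separately, and these differences were not tested.

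Under vehicle 3 of 10 genes were lower in NKO and none was higher, beside 3.8% called lower and 2.4% called higher of all genes. Besides Tlr2, these were Tlr1, with 37.6 and 33.6 CPM against 49.8 and 66.1 CPM (-0.71 ± 0.12, adjusted p = 0.000166), and Tlr9, with 18.4 and 20.4 CPM against 27.9 and 42.7 CPM (-0.86 ± 0.15, adjusted p = 0.000829). Both calls rest on WT vehicle library 2, without which the log2 changes are -0.49 and -0.52 and only Tlr2 is called. In control cells of the other tables with vehicle, Tlr1 was at 70.0 to 75.8 CPM (wild type, RGFP966 table), 40.3 to 42.4 CPM (Pgc1b flox) and 29.9 to 36.6 CPM (DMSO). With IFNb, Tlr2 was the 1 gene lower and none was higher, beside 1.94% and 1.86% of all genes. With IL4, Tlr2 and Tlr9 were lower and none was higher, beside 2.33% and 1.9%, and Tlr9 (13.5 and 11.9 CPM against 20.4 and 22.4 CPM, -0.75 ± 0.19, adjusted p = 0.0116) loses its call without WT library 2 (-0.68) or NKO library 2 (-0.67). With poly I:C, Tlr9 was the 1 gene lower, with 236 and 259 CPM against 398 and 428 CPM (-0.74 ± 0.10, adjusted p = 7.31e-05), and none was higher, beside 2.92% and 3.01%. With RANKL the direction was the opposite, with Tlr8 (177 and 198 CPM against 115 and 121 CPM, 0.67 ± 0.059, adjusted p = 1.89e-14) and Tlr13 (782 and 757 CPM against 476 and 456 CPM, 0.72 ± 0.052, adjusted p = 1.11e-17) higher in NKO and none lower, beside 6.21% called higher and 6.99% called lower. The neutrophil markers summed to 1458 to 1537 CPM in NKO with RANKL and 1042 to 1138 CPM in WT with RANKL, and fibroblast markers to 229 to 323 CPM and 193 to 219 CPM, whose part in these differences was not tested.

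Under KLA, 7 of 10 genes were lower in NKO and Tlr9 was higher, beside 19% called lower and 21% called higher of all genes. Tlr2 was at 128 and 137 CPM against 513 and 481 CPM (-1.91 ± 0.066, adjusted p = 1.88e-30) and Tlr1 at 206 and 202 CPM against 433 and 453 CPM (-1.12 ± 0.092, adjusted p = 3.52e-09). Tlr4 (-0.80), Tlr8 (-0.76), Tlr7 (-0.75), Tlr3 (-0.66) and Tlr6 (-0.61) were lower by less on the log2 scale, and Tlr6 loses its call without WT library 1 (-0.58). Tlr9 was at 499 and 484 CPM against 152 and 146 CPM (1.72 ± 0.11, adjusted p = 1.3e-09), the highest level of this gene in any group. Markers of conventional dendritic cells summed to 31.2 to 35.4 CPM in NKO with KLA against 4.26 to 4.66 CPM in WT with KLA. Those of plasmacytoid dendritic cells summed to 434.5 to 446.9 CPM against 314.9 to 317.9 CPM, and the part of both in these differences was not tested. The NKO libraries were set against each of the 4 control groups with KLA in a joint fit of the transcripts shared by the tables, which lacks Tlr6 and Tlr7. Tlr9 was higher by 1.67 to 3.84 on the log2 scale and Tlr2 lower by -1.79 to -2.38, both called against all 4 controls. Tlr1 (-0.68 to -1.78) and Tlr8 (-0.59 to -1.17) were also called against all 4, whereas Tlr3 was called only against WT with KLA (-0.52, -0.07 and -0.12 against the others). Tlr4 was called against 3 of the 4 (-0.76 to -0.86) but not against DMSO with KLA (-0.21, adjusted p = 0.0121). In this joint fit 37.3% to 46.9% of 10864 genes were called in either direction, and the tables and their dates differ along with the genotype.

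**Figure D4:**
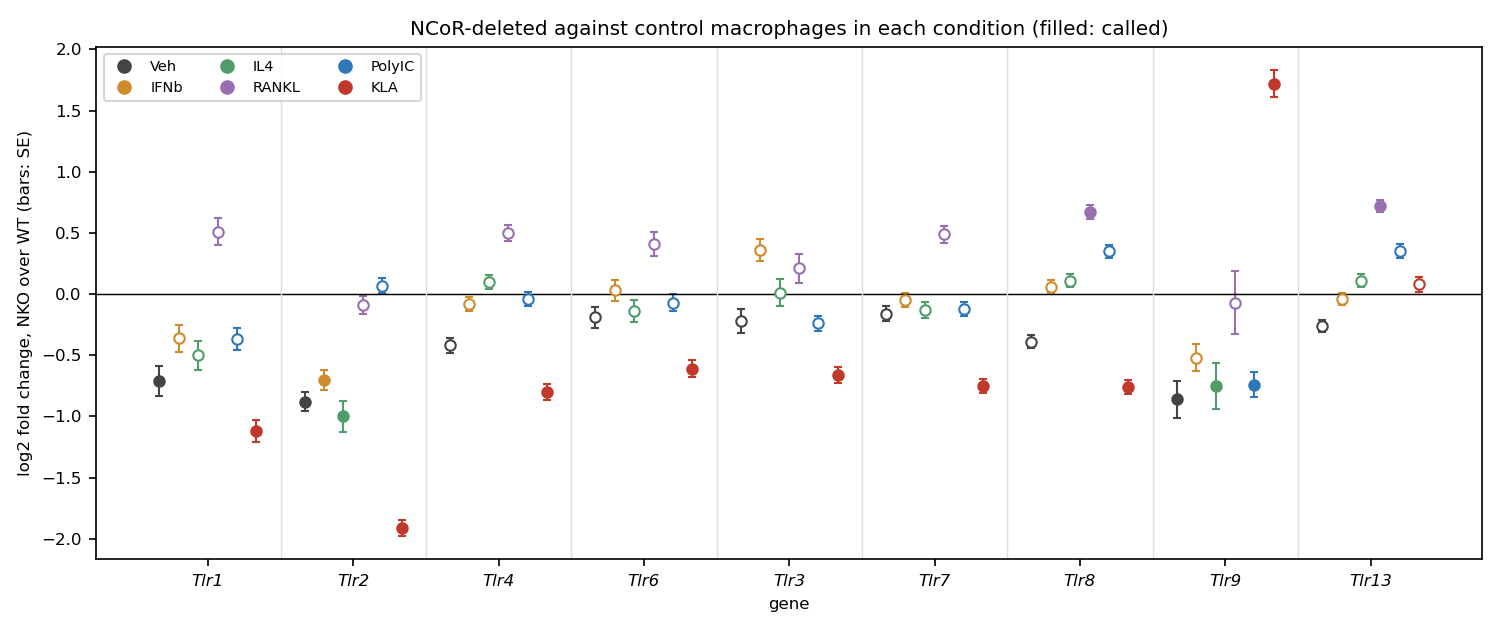
Log2 fold change of NKO over WT (y axis, bars SE) for 9 Toll-like receptor genes (x axis) in 6 conditions (colours), filled where called. Tlr2 is filled below 0 with vehicle, IFNb, IL4 and KLA, and Tlr9 sits at 1.72 with KLA, where the NKO and WT libraries also differ in date stamp and sex.

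Whether the response to a signal differed between NKO and WT was tested as an interaction. For IFNb and IL4 edgeR called no gene of the 10, beside 0.604% of all genes in both cases (1635 and 2270 genes at an unadjusted p under 0.05), and DESeq2 called none either. With 1 library left out, up to 2 genes were called for IFNb (without WT vehicle library 1) and up to 1 for IL4 (without the same library), while leaving out NKO vehicle library 1, WT IFNb library 2 or NKO IFNb library 2 gave 1 each for IFNb. For poly I:C, Tlr2, Tlr8 and Tlr13 were called, beside 3.24% of all genes (286 higher and 148 lower, or 227 and 185 with DESeq2 size factors), and for RANKL 7 genes, beside 14.2%. For KLA, Tlr2, Tlr7 and Tlr9 were called, beside 36.9%, and the call of Tlr7 (-0.59) is lost without NKO KLA library 1 (-0.50), NKO vehicle library 1 (-0.54) or WT vehicle library 2 (-0.57) and with no low-count filter (-0.58). These values share the vehicle libraries and are not independent of one another.

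The partners and relatives of the receptors were read from lists of the pathway. Of the cofactors (12 genes, among them Cd14 and Ly96, which present lipopolysaccharide to TLR4, Cd180 and its partner Ly86, and Unc93b1), KLA raised 5 and lowered 3 in WT cells, beside 25.4% and 32.3% of all genes, with a median log2 change of 0.06 against -0.14 over all genes. The named ones were Slc15a3 (2.81), an endosomal transporter, Cd14 (2.69) and Ly96 (1.81) on the log2 scale. With the TBK1 inhibitor, 5 of 11 tested cofactors were lower and 2 higher under KLA, beside 18.3% and 15% of all genes, led by Cd180 (-3.01) and Ly86 (-1.88). Of 5 adaptors, KLA raised 4 and lowered 1, the latter being Sarm1 (-1.47), whereas Myd88 rose by 2.78 and Ticam1, which encodes TRIF, by 1.17. The call of Sarm1 is lost without vehicle library 1 (-1.24) or KLA library 2 (-1.17). Sarm1 was near the floor of 3 counts, at 0.819 and 0.500 CPM with KLA against 2.13 and 1.57 CPM with vehicle. RANKL lowered 3 of the 5 adaptors and raised none, beside 19.8% and 24.1% of all genes. Of 6 brakes on the pathway, KLA raised 2, Tnfaip3 (5.40) and Irak3 (3.21), and lowered 2, of which Il1rl1 (-2.59) changed most, a call that is lost without vehicle library 1 (-1.8). Il1rl1 was below the floor of 3 counts with KLA, at 0.164 and 0.333 CPM against 2.20 and 0.889 CPM with vehicle. Irak3 was also lower in NKO than in WT with KLA (-2.10), where 1 brake was lower and none higher, beside 19% and 21% of all genes.

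Sensors of nucleic acids and microbial products outside the family formed a further list. Of its 10 genes, KLA raised 8 and lowered 1 in WT, beside 25.4% and 32.3% of all genes. Poly I:C raised 9 and lowered 1, beside 22.2% and 25%, and IFNb raised 4 and lowered none, beside 4.09% and 2.37%. The named ones were Ifih1 (5.41), the RNA helicase MDA5, and Zbp1 (5.33) with KLA, the same genes with poly I:C (6.23 and 5.69), and Zbp1 (3.57) with IFNb. The call of Zbp1 with IFNb is lost in an edgeR fit of the compared groups alone (adjusted p = 0.0761). With the TBK1 inhibitor 7 of these sensors were lower under KLA and none was higher, beside 18.3% and 15% of all genes, with a median of -2.76 against 0.01 over all genes. These were led by Zbp1 (-6.64), Dhx58 (-6.10) and Ddx58 (-6.03), which encodes RIG-I. With LysMCre in Pgc1b flox cells 5 were lower under KLA, beside 12.9% of all genes, led by Nod1 (-2.64), and with RGFP966 4 were lower, beside 9.54%, led by Ifih1 (-0.89). Under vehicle, NKO had 5 of the 10 lower than WT, beside 3.8% of all genes, but 1 without WT vehicle library 2. Zbp1 was at 8.11 and 7.87 CPM against 11.7 and 31.3 CPM (-1.43, and -0.55 without that library, not called), and Nlrp3, an inflammasome sensor, at 15.6 and 16.7 CPM against 31.6 and 41.3 CPM (-1.17). Of the 2 remaining mouse genes of the family, Tlr11 and Tlr12, poly I:C raised both (3.36 and 5.19), though only in the NCoR table did they pass the low-count filter, with Tlr12 at 3.09 and 2.64 CPM and Tlr11 at 5.83 and 4.93 CPM.

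For each of the 10, the gene outside the family with the most similar profile over the 12 groups of the NCoR table was found among 9856 genes averaging at least 5 CPM. The groups share their vehicle and ligand effects, so the correlations are a description. Tlr3 was most like Etnk1, a kinase of lipid synthesis (Pearson r = 0.996, and 0.998 over the 8 groups of 1 date stamp), Tlr1 like Cx3cl1, a chemokine (0.99 and 0.99), and Tlr6 like Slc39a1, a zinc transporter (0.992 and 0.994). Tlr2 was most like Lilrb4a (0.98 and 0.98), Tlr7 like Cd200r4 (0.984 and 0.981), Tlr9 like Taok3 (0.983 and 0.97) and Tlr13 like Vegfa, the angiogenic factor (0.947 and 0.962). The match was looser for Tlr4 with Gnaq (0.941 and 0.873) and Tlr8 with Plxdc2 (0.96 and 0.752), and for Tlr5 it was Ngp, a neutrophil granule gene, with 0.968 over all groups but 0.563 over those of 1 date stamp, that is, without RANKL and KLA.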

How the data were processed

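Poly(A)-selected RNA of 44 libraries was sequenced, of BMDMs by the study's methods, with those of RANKL named for osteoclasts in their headers. Per the file headers the authors counted exon reads per RefSeq gene with HOMER after alignment to mm10 with STAR, without normalization. The deposited values are raw counts, 1 transcript a gene, and versions are not given in the sources used here. Replicates were not pooled. Headers name no strand option, whereas the study's methods speak of strand-specific reads. All value columns were used. Samples were grouped by their labels into 22 groups of 2. Tables were analysed separately in edgeR 4.0.16 (R 4.3.3) with TMM scaling, filterByExpr and the quasi-likelihood test over all groups, 2-sided, with Benjamini-Hochberg adjustment over all genes tested. A call needs an adjusted p below 0.05 and a fold above 1.5, the thresholds the study gives with its results. Levels are TMM-scaled CPM, and SEs follow from the F statistic. With 2 against 2, an exact permutation test cannot reach 0.05, so the tests rest on spread shared across genes. The scripts were tested on simulated data. Intervals and floors (3 counts) cover counting error only, and total gene counts per library (8.32 M to 16.8 M; M, 1e6) set the precision. Replicates differed beyond sampling noise in every group (chi-square per degree of freedom 1.55 to 6.16). Same-numbered libraries did not deviate together (median correlation -0.031 to 0.05 by table), so numbers were not used as pairs. Named genes are the 10 receptors, the label checks, at most 3 called genes with the largest change per list and comparison, and the 1 most similar gene each. The members, lists and tests were chosen with earlier results of these data known. Alternatives were DESeq2 1.42.0 and its size factors, other filters, a replicate block, the compared groups alone, no fold threshold and each library left out.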

Additional observations from a re-analysis of the deposited data

Results flagged for a closer look

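The responses below differed between genotypes by edgeR's interaction term, given as the log2 response in the deleted cells minus that in the controls. With 2 libraries a group, no test for outlying libraries was made.

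In NKO against WT, the response to KLA was lower for Tlr2 (-1.03) and Tlr7 (-0.59) and higher for Tlr9 (2.58). The call of Tlr7 is lost without NKO KLA library 1 (-0.50), NKO vehicle library 1 (-0.54) or WT vehicle library 2 (-0.57), and with no low-count filter (-0.58). The KLA libraries of the 2 genotypes differ in date stamp and sex, which cannot be told apart from the genotype. The response to RANKL was higher in NKO for Tlr1 (1.22), Tlr8 (1.05), Tlr13 (0.98), Tlr4 (0.91), Tlr2 (0.79), Tlr7 (0.65) and Tlr6 (0.60), beside 14.2% of all genes called in either direction. Both genotypes share a date stamp within each treatment, but RANKL and vehicle differ in stamp and in the cells named in the headers. Neutrophil markers summed to 1458 to 1537 CPM in NKO and 1042 to 1138 CPM in WT with RANKL. With vehicle they summed to 4.59 to 4.62 and 2.87 to 6.88 CPM, and their part was not tested. The call of Tlr6 is lost without WT vehicle library 2 (0.53), NKO vehicle library 2 (0.52), WT RANKL library 1 or NKO RANKL library 1 (0.57 each), and that of Tlr7 without NKO RANKL library 2 (0.54). The response to poly I:C was higher in NKO for Tlr2 (0.94), Tlr8 (0.73) and Tlr13 (0.61). Tlr13 drops below the fold threshold with DESeq2 (0.57) and without WT vehicle library 2 or NKO vehicle library 1 (0.56 each).

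In Pgc1b flox cells with LysMCre, the response to KLA was lower than without for Tlr9 (-2.29), Tlr3 (-1.83), Tlr1 (-0.96), Tlr8 (-0.96), Tlr7 (-0.95), Tlr6 (-0.84) and Tlr4 (-0.63). All 8 libraries of that table share a date stamp. The call of Tlr4 is lost without control KLA library 2 (-0.51), control vehicle library 2 (-0.55) or LysMCre KLA library 1 (-0.57). Tlr9 counts behind the smallest levels are low, at 4.48 and 6.73 CPM with LysMCre and KLA.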

How the results depend on the processing

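Of 170 member differences printed or called, 2045 values under other settings gave 1936 on the same side of the threshold, 70 newly called and 39 lost, and none turned direction. Among 840 values of small differences that were not called, 43 changed sign. DESeq2 size factors, DESeq2 and the 5 CPM filter kept every count of called genes within 1.5 times of the main one except for RANKL, where the higher count (1, Tlr5) became 0 with DESeq2, the 5 CPM filter, the compared groups alone or no low-count filter. The last also gave 1 lower gene in place of 2 for the KLA interaction of NKO. The replicate block lost no call and added 1, and same-numbered libraries do not pair.
The counts without the fold threshold and with 1 library left out compare settings for these genes only. Counts that moved by 1.5 times or less are left out, among them the count lower with the TBK1 inhibitor. The share of all genes called at each setting is not given here, and dropping the fold threshold can only raise it. Without the fold threshold, the counts higher were 2 for RANKL, 6 for IFNb and 2 for IL4 in WT. Those of NKO over WT were 6 with RANKL, 2 with poly I:C and 1 with IFNb, and 3, 3 and 2 for the interactions with IFNb, IL4 and KLA. With LysMCre they were 1 under KLA and 1 for the interaction. The counts lower were then 2 for each of the 4 KLA comparisons and for poly I:C against IFNb, 6, 3 and 3 for NKO against WT with vehicle, poly I:C and IFNb, 7 for the KLA interaction of NKO and 4 for RGFP966.
Leaving out 1 library moved the count higher to between 0 and 1 for RANKL, 2 and 4 for NKO with RANKL, 0 and 2 for the IFNb interaction and 0 and 1 for the IL4 interaction. The count lower ran from 1 to 3 for NKO with vehicle, 1 to 2 with IL4, 1 to 2 with IFNb and 1 to 2 for the KLA interaction. Counts not listed were not all stable. In WT, the calls of Tlr3 with IFNb, Tlr9 with IL4, Tlr4 with poly I:C and Tlr3 with RANKL are lost when a library named above is left out. So is the call of Tlr13 for the poly I:C interaction.
Against the KLA controls of the other tables, NKO with KLA had fewer lower genes than the 7 of the main comparison. These were 4 against KLA, 4 against Pgc1b flox cells and 3 against DMSO with KLA, in a fit that lacks Tlr6 and Tlr7. In that fit 46.9%, 37.3% and 41.7% of 10864 genes were called in either direction against these 3 controls. Depth limits Tlr5, Tlr11 and Tlr12, and 2 libraries a group limit every result.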
